A study of Mus musculus with 2 samples.

Results

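Fc receptors bind the constant part of antibodies and pass the signal into the cell that carries them. The 7 Fc receptor genes described here are Fcgr1, Fcgr3 and Fcgr4 (activating receptors for IgG), Fcgr2b (the inhibitory IgG receptor), Fcer1g (the signalling chain of the activating receptors), Fcer2a (the low-affinity IgE receptor CD23) and Fcgrt (the neonatal Fc receptor). They were chosen by gene name, with earlier results of these arrays known, from 17020 genes measured on both arrays, so their values are a description and carry no test. All 7 were on the array design, by 12 probes. The probe of Fcgr4 carries the older name Fcgr3a in its description and was identified by its RefSeq accession.

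The cells were LSK cells of C57BL/6 mice, the lineage-negative, Sca-1-positive, c-Kit-positive cells of bone marrow that hold the stem cells and multipotent progenitors of blood. RNA of PAD4-deficient LSK cells (PAD4-/-) was hybridised to 1 array and RNA of wild-type LSK cells to 1 array, each from 300 ng of total RNA labelled with Cy3. PAD4, encoded by Padi4, is an enzyme that turns arginine into citrulline in histones and other proteins. The sources used here do not state the type of Padi4 allele, the age and sex of the mice or whether animals were pooled. With 1 array per genotype no difference has a replicate check: every error below is the scanner's error for a spot, carried over both arrays, and the number of arrays limits the precision.

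In the activating IgG receptors the ligand-binding chain, FcgammaRI (Fcgr1), FcgammaRIII (Fcgr3) or FcgammaRIV (Fcgr4), pairs with the common gamma chain made by Fcer1g, whose tail recruits the kinase SYK. FcgammaRIIB (Fcgr2b) has no such partner and carries its own inhibitory motif, which recruits the phosphatase SHIP1 (Inpp5d). In mouse bone marrow, antibody staining of FcgammaRII and FcgammaRIII together separates granulocyte-monocyte progenitors, which stain strongly, from megakaryocyte-erythroid progenitors, which do not. That staining is not part of these arrays, and whether such progenitors were among the sorted LSK cells was not tested. Fcgrt works apart from the others: with beta-2 microglobulin (B2m) it rescues IgG and albumin from breakdown inside cells.

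The windows around the transcript starts of the 3 activating receptor genes and of the inhibitory receptor gene are shown because these genes are compared below. Each runs 5′ to 3′ on the gene's strand from 250 bases before the RefSeq start (GRCm38.p6), and capitals mark TTCCTC, the reverse complement of GAGGAA, a core that the myeloid transcription factor PU.1 can bind. The Fcgr1 window is chr3:96293920-96294219 and the Fcgr3 window is chr1:171059354-171059653, both on the minus strand. The Fcgr4 window is chr1:171018676-171018975 on the plus strand, and the Fcgr2b window is chr1:170976022-170976321 on the minus strand.
Fcgr1: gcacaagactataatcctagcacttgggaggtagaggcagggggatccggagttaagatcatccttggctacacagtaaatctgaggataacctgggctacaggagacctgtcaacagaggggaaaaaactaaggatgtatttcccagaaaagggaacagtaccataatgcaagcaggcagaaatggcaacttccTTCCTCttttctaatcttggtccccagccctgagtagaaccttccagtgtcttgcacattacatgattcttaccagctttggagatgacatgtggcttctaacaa
Fcgr3: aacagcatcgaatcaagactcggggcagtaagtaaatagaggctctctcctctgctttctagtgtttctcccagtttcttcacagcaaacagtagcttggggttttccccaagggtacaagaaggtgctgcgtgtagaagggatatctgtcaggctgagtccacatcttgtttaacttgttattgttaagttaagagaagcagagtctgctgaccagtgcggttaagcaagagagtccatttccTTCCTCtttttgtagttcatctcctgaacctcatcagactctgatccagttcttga
Fcgr4: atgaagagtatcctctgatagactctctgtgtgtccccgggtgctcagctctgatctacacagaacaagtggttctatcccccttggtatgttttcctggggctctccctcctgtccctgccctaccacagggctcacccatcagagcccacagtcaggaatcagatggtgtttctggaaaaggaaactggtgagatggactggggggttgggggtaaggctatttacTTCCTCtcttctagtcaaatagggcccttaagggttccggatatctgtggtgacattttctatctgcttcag
Fcgr2b: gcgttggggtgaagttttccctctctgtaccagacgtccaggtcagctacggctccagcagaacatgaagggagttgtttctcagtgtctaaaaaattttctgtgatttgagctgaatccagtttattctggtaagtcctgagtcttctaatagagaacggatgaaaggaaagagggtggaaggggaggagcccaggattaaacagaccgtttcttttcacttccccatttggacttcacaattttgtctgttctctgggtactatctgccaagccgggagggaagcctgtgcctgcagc

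The core was searched on both strands in the windows of all 7 genes, as was the interferon-gamma element TTCNNNGAA, which reads the same on both strands. These motifs were chosen after the values of the members were seen, and the core was searched in 3 forms, each containing the shorter ones. GAGGAA or its complement was found in 3 of the 7 genes, Fcgr1, Fcgr3 and Fcgr4, once in each window, against 31.3% of 27025 genes with a window. The shorter form GGAA was in all 7 members, against 96.5% of genes, and the longer form GAGGAAGT was in 1 member, Fcgr4, against 3.69% of genes. Only 1 of the 3 forms was thus found in the activating receptor genes and in no other member. Its share of the 7 members was not tested against its share of all genes. The match began 55 bases before the start in Fcgr1, 6 bases before it in Fcgr3 and 22 bases before it in Fcgr4. A second Fcgr3 window of the RefSeq table, from another start, holds the same match 15 bases before that start. In Fcgr1 and Fcgr3 the match lies within the longest run of bases that their windows share, ttccTTCCTCtttt, which is 14 bases long. That run occurred in 3 of 32851 windows, those of 2 genes, Fcgr1 and Fcgr3. It was picked as the longest run these windows share, so its rarity follows from the choice and carries no weight. Fcgr3 and Fcer2a share a run of 12 bases, found in 7 genes, which in Fcgr3 overlaps the same site. TTCNNNGAA was found in 1 member, Fcgr1, 109 bases before its start, against 9.55% of genes. A match is only the presence of these letters, and binding was not measured.

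The activating IgG receptors were the members furthest above wild-type, with Fcgr3 first, except that Fcgr4 (0.23) came below Fcgr2b (0.34) with normexp background correction and an offset of 50. Fcgr3, Fcgr1 and Fcgr4 passed 1.5-fold in the direction of PAD4-deficient cells, 3 of the 7 members, as did 2.88% of all measured genes (at least 1.5-fold higher). This count rests on the processing: it was 2 under 4 of the alternatives, where Fcgr4 missed the limit, and 1, Fcgr3, with normexp and an offset of 50. At least 2-fold higher was 1 member, Fcgr3, against 1.01% of all measured genes. No member was 1.5-fold or 2-fold lower, against 1.87% and 0.476% of all measured genes. By the brightest measured probe of each gene, 6 of the 7 members were above 0 and 5 differed by more than their scanner error. The median of the members was 0.36 on the log2 scale. The median of all measured genes was itself above 0, at 0.02, with quartiles of -0.12 and 0.15. How many of all measured genes differed by more than their scanner error was not counted. In sorted cells measured in bulk, more cells that carry a transcript and more transcript per cell cannot be told apart.

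**Figure D1:**
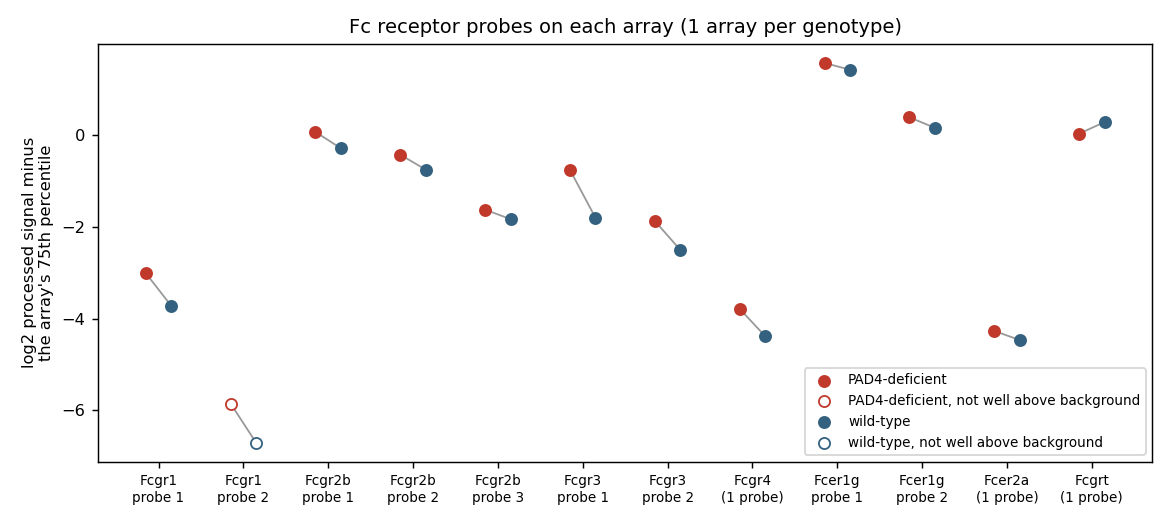
The level of each Fc receptor probe is plotted as log2 processed signal minus the array's 75th percentile, with 1 point per array and a line joining the PAD4-deficient and wild-type values; heights of different probes cannot be compared. Filled points are well above background, and Fcgrt is the only probe with its lower point on the PAD4-deficient array.

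Fcgr3, the activating low-affinity IgG receptor of myeloid and natural killer cells, was measured by both of its probes. Its brighter probe lies at 172888191 to 172888266 of chromosome 1 (build mm8, as for all probes here) and gave a processed signal of 462.7 on the PAD4-deficient array and 232.8 on the wild-type array. After each array was scaled to its 75th percentile, the log2 difference was 1.04 (error 0.21), a level 2.06-fold higher. That difference was greater than in 99.1% of measured genes. The other probe (chromosome 1, 172890673 to 172890732) had signals of 214.2 on the PAD4-deficient and 143.3 on the wild-type array, a log2 difference of 0.63 (error 0.21). Both probes thus gave a higher level, by more than their errors, and they differed from each other by 0.41 with an error of 0.29. Of 2856 measured probes within 0.5 log2 units of the brighter probe's level, 1.51% were at least 1.5-fold higher, as were 2.91% of the 2786 probes near the other.

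Fcgr1, the high-affinity IgG receptor CD64 of monocytes, macrophages and dendritic cells, was dim. Its measured probe (chromosome 3, 96368314 to 96368360) had signals of 97.5 on the PAD4-deficient array and 61.6 on the wild-type array, a log2 difference of 0.71 (error 0.23). A second probe (chromosome 3, 96369880 to 96369943) was not well above background on either array, with signals of 13.6 and 7.80, and gives no difference. Differences of this size were more frequent among dim probes: of 2974 probes near the level of the measured probe, 5.58% were at least 1.5-fold higher. With normexp background correction and an offset of 50, whose added constant pulls dim probes towards 0, the difference of Fcgr1 was 0.40.

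Fcgr4, the activating IgG receptor of monocytes, macrophages and neutrophils, was also dim. Its single probe (chromosome 1, 172866282 to 172866341) had signals of 56.8 on the PAD4-deficient array and 39.0 on the wild-type array. The log2 difference was 0.59 with an error of 0.27, a 1.51-fold higher level, just past the 1.5-fold limit. Of 2991 probes near its level, 6.92% were at least 1.5-fold higher. The difference was 0.23 with normexp and an offset of 50.

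Fcgr2b, the inhibitory receptor, was slightly higher in PAD4-deficient cells at each of its 3 probes. The brightest (chromosome 1, 172797532 to 172797591) is printed in 10 spots on each array. The spots lay at 765.7, 819.2 and 903.3 (lowest, median and highest) on the PAD4-deficient array and at 601.5, 664.6 and 736.7 on the wild-type array, with no overlap. Spot by spot the log2 difference was 0.36 ± 0.04 (SD over 10 spots), between 0.31 and 0.44, and was above 0 in 10 of 10 spots. The spots repeat the measurement of the same RNA, so this SD covers the spot and not the mice. The scanner error of 0.20 for the same difference is wider.

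The other Fcgr2b probes gave smaller values in the same direction. The second (chromosome 1, 172797671 to 172797730) had signals of 582.8 on the PAD4-deficient and 480.9 on the wild-type array, a log2 difference of 0.33 (error 0.20). The third (chromosome 1, 172802377 to 172802436) had 253.9 and 228.0 on these arrays, a difference of 0.21, within its error of 0.21. Its coordinates lie upstream of the other probes on this minus-strand gene. No probe of Fcgr2b reached 1.5-fold.

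**Figure D2:**
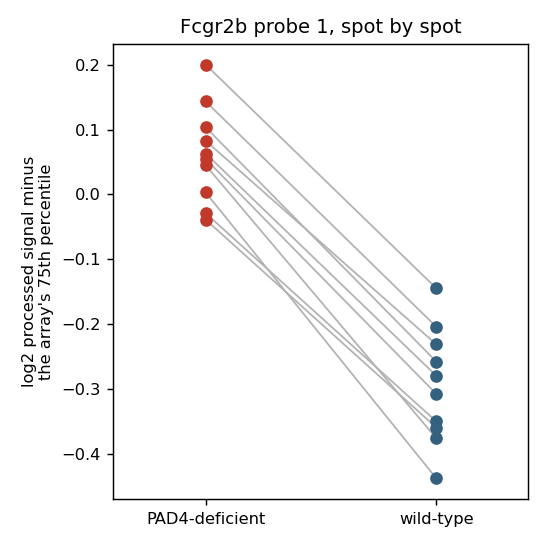
Each line joins the same printed spot of the brightest Fcgr2b probe on the PAD4-deficient array and on the wild-type array, on the y axis as log2 processed signal minus the array's 75th percentile. The 10 PAD4-deficient spots lie between -0.04 and 0.20 and the 10 wild-type spots between -0.44 and -0.14.

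The activating receptors were set against the inhibitory receptor by subtracting the difference of the brightest Fcgr2b probe. For the brighter Fcgr3 probe this left 0.68 with an error of 0.29. For the other Fcgr3 probe it left 0.27 with an error of 0.29, for Fcgr1 0.35 with an error of 0.31 and for Fcgr4 0.24 with an error of 0.34. Only the brighter Fcgr3 probe, and Fcgr1 narrowly, thus differed from Fcgr2b by more than the scanner error in the main setting. With normexp and an offset of 50 Fcgr1 had 0.40 and Fcgr2b 0.34, nearer to each other than the error of 0.31. Fcgr2b and Fcgr3 encode closely similar outer domains, and how far their probes bind each other's transcripts was not tested. The probes of different members list no accession in common.

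Fcer1g, the gamma chain shared by the activating receptors and the high-affinity IgE receptor, differed little. Its brighter probe (chromosome 1, 173066338 to 173066397) had signals of 2326 on the PAD4-deficient array and 2174 on the wild-type array, a log2 difference of 0.15 (error 0.20). The other probe (chromosome 1, 173066390 to 173066462), whose coordinates overlap the first, had 1024 and 905.7 on these arrays, a difference of 0.23 (error 0.20). The chain that the activating receptors need was thus within its error at the brighter probe and just past it at the other.

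Fcer2a, which B cells use to bind IgE, was near the lower end of what the arrays measure. Its single probe (chromosome 8, 3682021 to 3682080) had signals of 40.8 on the PAD4-deficient array and 36.8 on the wild-type array, a log2 difference of 0.20 within its error of 0.29. Fcgrt was the only member that was lower. Its single probe (chromosome 7, 44963228 to 44963287) had signals of 799.4 on the PAD4-deficient array and 986.8 on the wild-type array, a log2 difference of -0.25 (error 0.20).

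**Figure D3:**
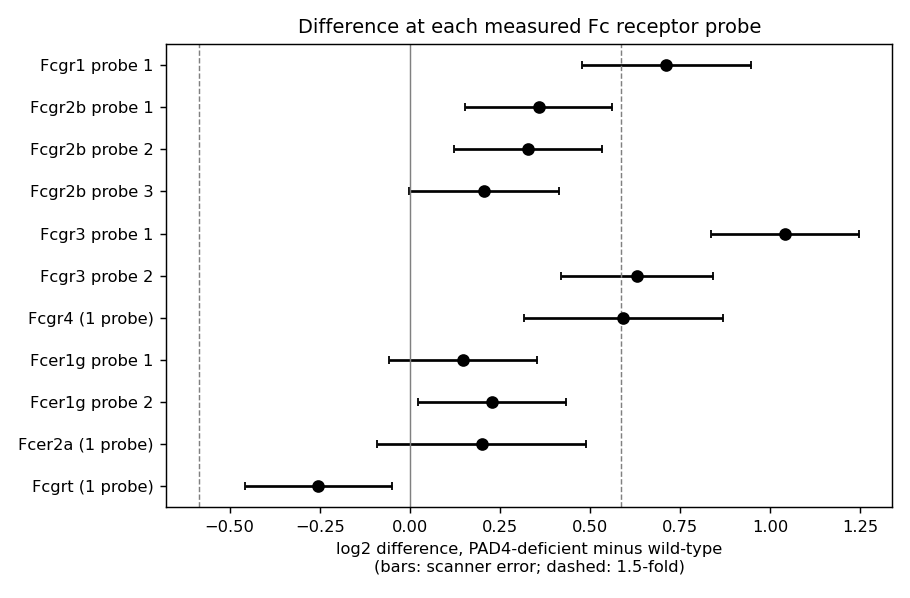
The log2 difference, PAD4-deficient minus wild-type, is plotted for the 11 Fc receptor probes measured on both arrays, with the scanner error as bars and dashed lines at 1.5-fold. Both Fcgr3 probes, Fcgr1 and Fcgr4 lie past the upper dashed line (Fcgr4 only just), and Fcgrt alone lies below 0.

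Fcgr2b, Fcgr4 and Fcgr3 lie side by side on chromosome 1, and Fcer1g lies further along it, so the nearest measured genes were described too (3 on each side, order from GRCm38.p6). These were 11 genes with a median of 0.05. Dusp12, a phosphatase gene beside Fcgr2b, differed by 0.05, and Atf6, a stress transcription factor, and Nos1ap next to it by 0.20 and 0.26. On the other side of the cluster Cfap126 differed by -0.05, Sdhc, a subunit of mitochondrial complex II, by 0.13 and Pcp4l1 by 0.10. None of these 6 genes was 1.5-fold different.

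Around Fcer1g, 2 neighbours passed 1.5-fold, in opposite directions and each by 1 measured probe. Nr1i3, a nuclear receptor, had signals of 234.7 on the PAD4-deficient and 159.3 on the wild-type array, a difference of 0.61 (error 0.21). Adamts4, a protease of cartilage matrix, had 95.4 and 300.4 on these arrays, a difference of -1.61 (error 0.21). Nearer to 0, Tomm40l differed by -0.05 and B4galt3 by -0.21.

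Among 13 other Fc receptors and Fc receptor-like genes, 5 were measured on both arrays, with 2 higher and 1 lower by 1.5-fold or more and a median of 0.14. Fcer1a, the IgE-binding chain that signals through the same gamma chain in mast cells and basophils, had signals of 106.6 on the PAD4-deficient and 65.8 on the wild-type array, a difference of 0.75 (error 0.23). Fcmr, the IgM receptor, had 56.5 and 33.4 on these arrays, a difference of 0.81 (error 0.28). Fcrl1, a B cell Fc receptor-like gene, had -0.78 (error 0.23) at its brighter probe and -0.01 at the other, so its probes disagreed. Trim21, the cytosolic IgG receptor, differed by 0.02. With normexp and an offset of 50 none of the 3 passed 1.5-fold: Fcer1a had 0.44, Fcmr 0.39 and Fcrl1 -0.42. Over all settings the list median lay between 0.03 and 0.75.

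In a further 4 genes of this list the PAD4-deficient array alone was well above background. Fcrla, a B cell gene, was at least 3.48-fold higher there, with signals of 62.4 on the PAD4-deficient and 18.6 on the wild-type array. Fcrl6 was at least 2.34-fold higher, with signals of 40.0 and 4.08 on these arrays. Such a fold is a lower bound: the wild-type side is the probe's own level or the lowest level well above background there, whichever is higher. Ms4a2, the beta chain of the IgE receptor, reached at least 1.32-fold and Fcgbp at least 1.30-fold. Of the rest, 3 (Fcrl5, Fcamr and Pigr) were well above background on neither array, and Fcrlb was not analysed here. Across all 41170 probes, 26398 passed this limit in PAD4-deficient cells, 26308 in wild-type cells and 25524 in both. Passing in 1 genotype alone was thus not confined to PAD4-deficient cells. The 4 genes were not tested against these counts.

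Genes that carry the receptor signal showed no 1.5-fold difference in either direction at their brightest measured probes, but 3 of them were at least 1.5-fold lower at another probe. Of 23 activating signalling genes 21 were measured, with 9 above 0 and a median of -0.04. The brightest probe of Plcg1, a phospholipase C, gave -0.24 and its lowest -0.79, and the probes of Prkcd, a protein kinase C, gave -0.17 (the brighter) and -0.75; both were named after their values were seen. Plcg2, the phospholipase C of this pathway, differed by -0.26 and Rac2, a small GTPase of blood cells, by -0.00, the list's brightest probes. Syk, the kinase recruited by the gamma chain, differed by -0.39 with an error of 0.20, and the Src-family kinase Lyn by 0.17. Of 15 inhibitory signalling genes 13 were measured, with 5 above 0 and a median of -0.08. Dok2, an adaptor that restrains signalling, differed by -0.32 and Ptpn11, a phosphatase, by -0.05. Inpp5d, which encodes the SHIP1 phosphatase that FcgammaRIIB recruits, differed by -0.33 and Ptpn6, the SHP-1 phosphatase, by -0.31 at its brighter measured probe and by -0.85 at the other. Syk, Lyn, Inpp5d and Ptpn6 were named for their roles after their values were seen.

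Among 20 signalling adaptors related to Fcer1g and receptors that can use them, 16 were measured, with 2 higher and none lower by 1.5-fold or more and a median of 0.08. Klrk1, the NKG2D receptor, had signals of 52.0 on the PAD4-deficient and 21.4 on the wild-type array, a difference of 1.33 (error 0.36; 0.50 with normexp and an offset of 50). Clec5a, a myeloid receptor that signals through the adaptor of Tyrobp, had 162.5 and 83.4 on these arrays, a difference of 1.01 (error 0.22; 0.64 with normexp and an offset of 50). Each of these came from 1 measured probe. Tyrobp itself, the adaptor DAP12, differed by 0.25 with an error of 0.20, and Csf2rb, the common beta chain of cytokine receptors, by 0.06 at its brightest probe and by as little as -0.48 at another.

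Of 11 genes that pair with Fcgrt or move it through the cell, 9 were measured, none was 1.5-fold different, and the median was -0.02 (between -0.08 and 0.01 over the alternative settings, so its sign turned). B2m, the light chain that the neonatal Fc receptor needs, had signals of 49283 on the PAD4-deficient array and 49191 on the wild-type array, a difference of 0.05. Rab11b, a GTPase of recycling endosomes, differed by -0.13.

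**Figure D4:**
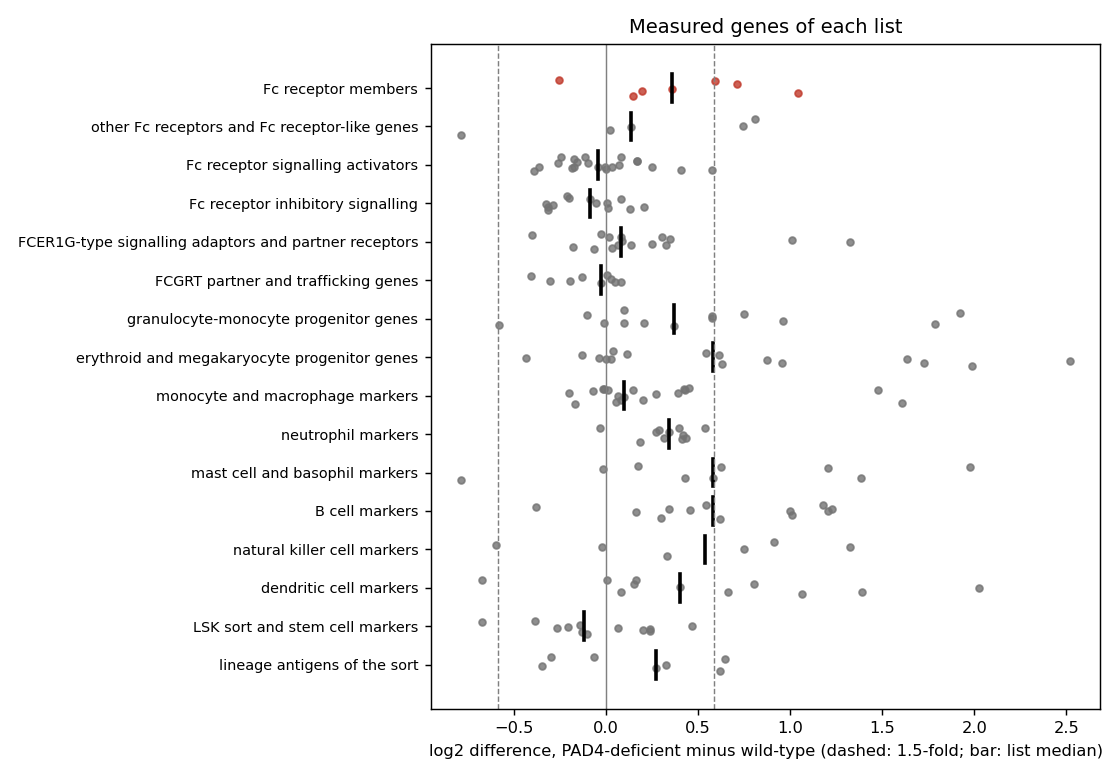
Each point is a gene measured on both arrays, placed by its log2 difference, PAD4-deficient minus wild-type, in the list named at the left; bars are list medians and dashed lines 1.5-fold, and the vertical scatter has no meaning. The Fc receptor members (top) have a median of 0.36, and the activating and inhibitory signalling lists have no point, each a gene's brightest measured probe, past a dashed line.

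Since Fc receptors are carried by several blood cell types, markers of these were measured beside them. The part that other cell types have in the Fc receptor differences was not tested. The granulocyte-monocyte progenitor genes, the progenitors that carry the most FcgammaRII and FcgammaRIII, had 13 measured members, 10 above 0, 4 higher and none lower by 1.5-fold or more and a median of 0.37. Elane, Ms4a3 and Ctsg, granule and membrane genes of these progenitors, differed by 1.92, 1.79 and 0.96, and Irf8, a transcription factor of the monocyte and dendritic lineage, by 0.75 at its brighter probe and 0.34 at the other. Mpo, myeloperoxidase, differed by 0.58 and Cd34 by -0.10. Spi1, which encodes PU.1 and was named after its value was seen, had signals of 257.1 on the PAD4-deficient and 398.5 on the wild-type array, a difference of -0.58 (error 0.21).

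Erythroid and megakaryocyte progenitor genes, of the lineage that carries little FcgammaRII and FcgammaRIII, also had a median above 0. Of 16 measured, 8 were higher and none lower by 1.5-fold or more, with a median of 0.58. Ermap and Rhd, red cell membrane genes, differed by 2.52 and 1.99, Car1, a carbonic anhydrase, by 1.73 and the erythroid transcription factor Klf1 by 1.63; with normexp and an offset of 50 Ermap had 1.42. The brightest of the list, Nfe2 and Zfpm1, differed by 0.04 and -0.04. The Fc receptor genes were thus not alone: the gene lists of both kinds of progenitor had medians above 0 together.

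Markers of mature cells that carry Fc receptors differed from list to list. Of 19 measured monocyte and macrophage markers, the cells that carry all of the IgG receptors, 2 were higher and none lower by 1.5-fold or more, with a median of 0.10. F13a1 and Ccr2 differed by 1.61 and 1.48 (Ccr2 by 0.95 with normexp and an offset of 50), while Lyz2, lysozyme, differed by 0.06, and Ly6c1 by 0.15 at its brighter probe and 1.84 at the other. Their summed level, in units of each array's 75th percentile, was 104.4 on the PAD4-deficient and 98.2 on the wild-type array, and Vcan was well above background on neither. Of 11 measured neutrophil markers 10 were above 0 and none was 1.5-fold different, with a median of 0.34 and a summed level of 41.9 and 31.8 on these arrays. S100a9 and S100a8, calcium-binding proteins of neutrophils, differed by 0.40 and 0.54.

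The 9 measured mast cell and basophil markers had a median of 0.58, with 4 higher and 1 lower by 1.5-fold or more and a summed level of 17.0 on the PAD4-deficient and 13.6 on the wild-type array. Gzmb, Hdc, Cma1 and Mcpt8, granule and histamine genes, differed by 1.98, 1.39, 1.20 and 0.63, Il4 by -0.78, Gata2 by 0.18 and Cpa3 by 0.43; Tpsab1 and Mrgprb1 were well above background on neither array. With normexp and an offset of 50 the count was 3 higher and 0 lower, where Cma1 had 0.73, Mcpt8 0.52 and Il4 -0.56. The 12 measured B cell markers, of the cells that carry Fcgr2b and Fcer2a, had a median of 0.58, with 6 higher and none lower by 1.5-fold or more and a summed level of 27.7 and 20.4. Pax5, Pou2af1, Vpreb3 and Vpreb1, genes of early and mature B cells, differed by 1.23, 1.21, 1.18 and 1.01 and Cd79b by 0.17, whereas Fcer2a differed by 0.20 within its error. Of the 12 markers 11 were above 0. Cd72, named after its value was seen, differed by -0.38 at its brighter probe and by -0.37 at the other. Blk was well above background on neither array.

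The 6 measured natural killer cell markers, of cells that carry Fcgr3 alone among the IgG receptors, had a median of 0.54, with 3 higher and 1 lower by 1.5-fold or more. Besides Klrk1, Il2rb and Klrb1c differed by 0.91 and 0.75, Prf1, perforin, by -0.60, Nkg7 by -0.02 and Klrd1 by 0.33. With normexp and an offset of 50 only Il2rb (0.61) still passed 1.5-fold, since Klrb1c had 0.58, Klrk1 0.50 and Prf1 -0.11. The defining markers Ncr1, Eomes, Gzma and Klra8 were well above background on neither array, and the summed level of the list was 21.4 on both. The 11 measured dendritic cell markers had a median of 0.40, with 5 higher and 1 lower (Flt3, -0.67) by 1.5-fold or more. Their summed level was 61.4 on the PAD4-deficient and 42.0 on the wild-type array. Of the 11 markers 10 were above 0. Itgax differed by 0.08 at its brighter probe and 0.37 at the other, Zbtb46 by 0.15 and Ccr7 by 0.00. These 3 were named after their values were seen. Batf3, H2-Eb1, Cd74 and H2-Ab1, a transcription factor and genes of antigen presentation, differed by 2.02, 1.39, 1.07 and 0.80 and Bst2 by 0.16, and Clec9a was at least 2.49-fold higher; Siglech and Cd209a were well above background on neither array.

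The labels were checked on the same arrays. The 12 LSK sort and stem cell markers were all measured, with a median of -0.12, none higher and 1 lower by 1.5-fold or more, Flt3 at -0.67 with an error of 0.20. Kit differed by 0.07, Ly6a (Sca-1) by -0.14, Cd34 by -0.10 and Hlf by -0.20. Of the antigens a lineage stain may use and related genes, 7 were measured, with a median of 0.27 and 2 at least 1.5-fold higher. Il7r, the interleukin-7 receptor, differed by 0.65 at its brighter probe and 0.04 at the other. Neither gene passed 1.5-fold with normexp and an offset of 50, where Il7r had 0.54. Ptprc, CD45, differed by -0.06 and Cd5 by -0.34. Cd8a was at least 4.42-fold higher by its brightest probe above background, which reached that on the PAD4-deficient array alone. Padi4 was lower on the PAD4-deficient array, with 21.5% of the wild-type level at its brightest probe and 21.2% and 24.2% at the others. Xist, which the inactive X chromosome transcribes, was above background there alone, by at least 951-fold. The Y-linked Ddx3y differed by -1.36, with signals of 1297 on the PAD4-deficient and 3455 on the wild-type array. Eif2s3y, also Y-linked, had 1076 and 2611 on these arrays, a difference of -1.23. The PAD4-deficient array thus held both Xist and Y-linked transcripts. Whether its RNA came from animals of both sexes was not tested. Genotype and this difference in sex-linked transcripts cannot be told apart.

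**Figure D5:**
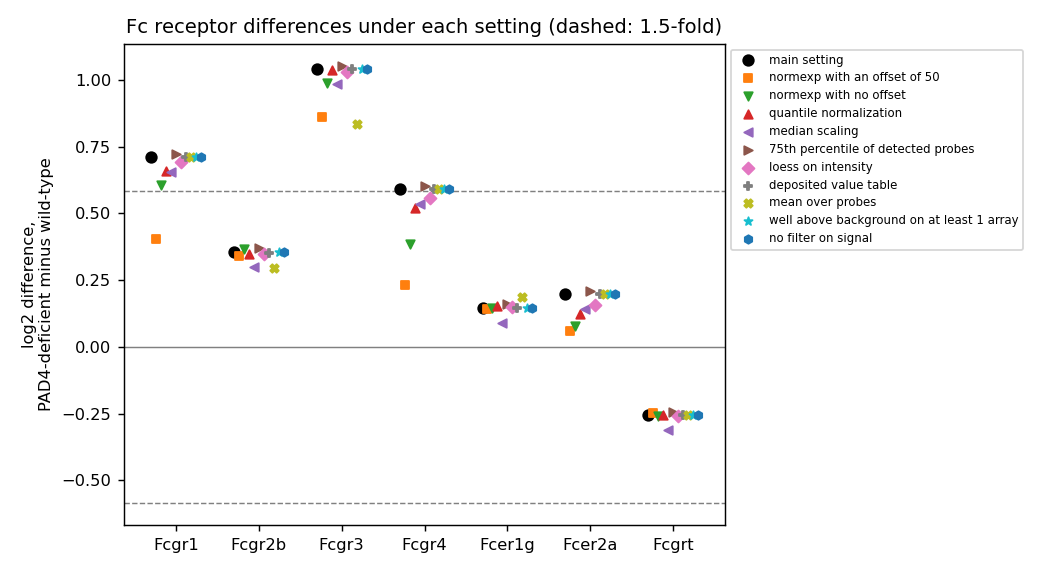
The log2 difference of each Fc receptor gene, PAD4-deficient minus wild-type, is plotted under the main setting (black circles) and 10 alternatives, with dashed lines at 1.5-fold. Fcgr3 stays between 0.84 and 1.05, whereas Fcgr1 spans 0.40 to 0.72 and Fcgr4 0.23 to 0.60, both lowest with normexp and an offset of 50.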

How the data were processed

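Gene expression was measured on 1-colour Agilent arrays (design 014868), 1 array for PAD4-deficient and 1 for wild-type LSK cells, sharing a slide and a scan. Per the file headers, the software was Feature Extraction 9.5.3.1 and the probe coordinates are those of mm8 (version 9.5 in the submitters' processing notes). Scanner files, as deposited, hold each spot's intensity on a linear scale, background-subtracted and spatially detrended by the authors, with its error, beside the mean and local background intensity. The value table that the authors deposited holds log2 values: for all 41174 probes each column was log2 of the median processed signal minus a constant, 9.62 for the PAD4-deficient and 9.67 for the wild-type array, with column medians of -3.53 and -3.59. Its scale, centring and direction were thus settled.

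Log2 processed signals of unflagged, non-control spots were averaged per probe and scaled by subtracting each array's 75th percentile, a signal of 786.5 on the PAD4-deficient and 814.2 on the wild-type array. Removing flagged spots left 41170 probes. A probe was measured when well above background on both arrays (25524 probes, 17020 genes), and the PAD4-deficient array had 64.1% and the wild-type array 63.9% of probes well above background. No spot was saturated. A gene took the value of its brightest measured probe, and its difference was PAD4-deficient minus wild-type. Where 1 array alone was well above background, the fold is a lower bound. Gene names came from RefSeq (GRCm38.p6): 24484 by accession, 6240 by symbol, 2385 by synonym, and 8061 probes have their original name. Of the 12 member probes 10 matched by accession and 2 by symbol. Start-site windows of 250 bases before to 50 after came from the same RefSeq build.

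With 1 array per group no test was made; genes were counted at 1.5-fold and 2-fold. The members and the gene lists were chosen with earlier results of these data known. The named genes were the members, up to 4 genes per list and direction past 1.5-fold, the brightest 2 of each list, list genes at least 2-fold higher on 1 array only, the chromosome 1 neighbours and Padi4. Some genes that this rule takes are not reported here. The sequence motifs, in 3 forms for PU.1, were chosen after the values were seen. No genes of like pattern were named, since each gene has 1 difference. The 10 alternatives were normexp with an offset of 50 and with none, scaling by the median, by the 75th percentile of detected probes, by quantiles or by loess (window 0.3), the mean over a gene's probes, the authors' deposited value table, and 2 looser signal filters. The steps were tested on simulated data. Python 3.11.15, numpy 2.4.6, pandas 2.3.3, scipy 1.17.1, statsmodels 0.14.6, R 4.3.3 and limma 3.58.1 were used.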

Additional observations from a re-analysis of the deposited data

How the results depend on the processing

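No paired analysis was possible because either genotype had a single array, and no replicate could be left out. The count of members at least 1.5-fold higher was 3 in the main setting and 1 with normexp and an offset of 50, where Fcgr1 had 0.40, Fcgr4 0.23 and Fcgr3 0.86. It was 2 with normexp without an offset, quantile normalization, median scaling and loess, since Fcgr4 lay just past 1.5-fold, and 3 with the other 5 alternatives. No alternative put a member at least 1.5-fold lower, and none changed the sign of a member. Normexp with an offset shrinks dim probes by construction; without the offset Fcgr1 had 0.61 and Fcgr4 0.39. With the offset the B cell count was 5 higher in place of 6, the erythroid and megakaryocyte count 7 in place of 8, the dendritic cell count 4 in place of 5, the granulocyte-monocyte progenitor count 5 in place of 4 and the neutrophil count 1 in place of 0. The looser signal filters brought in dim genes: the median of the other Fc receptors was 0.75 when 1 array above background sufficed and 0.60 with no filter, against 0.14, and with no filter the B cell median was 0.80 and the natural killer cell median 0.30. In all, 233 recomputed values moved by less than the scanner error or by at most 1.5 times in a count, and 7 by more. Median scaling moved all genes by -0.06. Signal over background limits Fcgr1, Fcgr4 and Fcer2a, whose scanner errors were the widest of the measured members. The median of the genes that pair with Fcgrt changed sign, between -0.08 and 0.01.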
